A study of Mus musculus with 10 samples.

Results

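The transcripts described here are those of the mitochondrial genome, a small circular DNA that mitochondria keep apart from the chromosomes of the nucleus. They were taken by symbol: every gene whose name in the deposited count files starts with mt-. The rule found 16 of 35667 genes, namely all 13 protein-coding genes of the mitochondrial genome, both of its rRNA genes and 1 tRNA gene, mt-Tp. GENCODE M21 annotates 37 mitochondrial genes, of which 22 encode tRNAs, and the other 21 tRNA genes were not analysed here.

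RNA sequencing was done on 10 libraries from aorta, the great artery that carries blood out of the heart, taken from C57BL/6 mice aged 12 weeks. Of these, 5 libraries were labelled knockout (KO) for Ovgp1, the gene of the secreted oviductal glycoprotein 1, and 5 were labelled wild type (WT). No label gives the deletion, the number of animals behind a library or whether tissue was pooled. The titles name Ovgp1 for all KO libraries, while the genotype field names it for KO replicate 1 only and Ovgp2 to Ovgp5 for the others. Libraries are called KO1 to KO5 and WT1 to WT5 after their titles.

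Ovgp1 had 22.5, 20.1, 18.4, 20.5 and 18.3 CPM (counts scaled to a common library total) in the libraries labelled KO, against 4.14, 3.94, 4.43, 1.98 and 3.35 CPM in those labelled WT. It was thus higher, not lower, in every library labelled KO, and KO and WT stand below for the labels. The libraries labelled KO were also nearly identical to each other. A chi-square over 12509 genes, divided by its degrees of freedom, was 1.77 to 3.25 for pairs of KO libraries and 11 to 154 for pairs of WT libraries. On this scale 1 is counting error alone. The genes include mitochondrial ones with very high counts, so the WT figure is not independent of the WT differences described below. The spread of the KO libraries covers little beyond counting error. The tests of 5 KO against 5 WT libraries are therefore set beside a fit that adds up the KO counts to 1 sample and takes its spread from the WT libraries. Depth was 24434745 to 26694590 counts in KO libraries and 21242030 to 24396394 in WT libraries. All 7 smooth muscle markers looked up for the aortic wall were present, led by Acta2 and Myh11. Tagln was the lowest of the 7, at 21.3 to 27.7 CPM.

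Mitochondrial DNA is transcribed from both of its strands as long precursor RNAs, which are cut mainly at the tRNAs that lie between the other genes. The mRNAs encode core subunits of respiratory complexes I, III and IV and of the ATP synthase, complex V, and the rRNAs form the mitochondrial ribosome that translates them. All other proteins of the organelle, including those that transcribe its DNA, come from nuclear genes. Nuclear chromosomes also carry inserted stretches of mitochondrial DNA, and a short read from such a stretch can have the same letters as one from the mitochondrial gene.

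Those inserted stretches bear on which members can be counted, so their letters are shown first. In GRCm38, 7 annotated pseudogenes lie one after the other on the minus strand of chromosome 1, between positions 24611535 and 24616197, and follow the mitochondrial order from the end of mt-Co1 to the first part of mt-Nd4. Gm28661 matches mt-Co2 at 681 of 681 bases, Gm10925 matches mt-Atp6 at 678 of 678, Gm28437 matches mt-Co3 at 783 of 783 and Gm10222 matches mt-Nd4l at 294 of 294. Gm28438 differs from mt-Nd3 at 1 of 345 bases, T3C, counted from 1 at the gene's 5′ end with the mitochondrial base first. Gm28439 holds 876 of the 1378 bases of mt-Nd4 without a difference. Gm29216 covers the last 492 bases of mt-Co1 with 6 differences, which all lie near its 5′ end (T1056A, C1057T, A1059G, A1060G, C1062A and A1066T). The first 60 aligned bases of 3 pairs, from GENCODE M21 transcripts, show how little there is to separate a read of one from a read of the other, with differing bases in capitals.
mt-Co1 (chrM:6381-6440, plus strand): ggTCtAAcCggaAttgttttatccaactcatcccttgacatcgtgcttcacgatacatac
Gm29216 (chr1:24616138-24616197, minus strand): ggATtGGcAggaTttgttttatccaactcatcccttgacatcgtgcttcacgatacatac
mt-Co2 (chrM:7013-7072, plus strand): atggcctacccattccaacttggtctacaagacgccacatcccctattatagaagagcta
Gm28661 (chr1:24615506-24615565, minus strand): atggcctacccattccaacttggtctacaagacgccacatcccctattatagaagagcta
mt-Nd3 (chrM:9459-9518, plus strand): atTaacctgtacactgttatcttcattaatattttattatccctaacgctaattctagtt
Gm28438 (chr1:24613060-24613119, minus strand): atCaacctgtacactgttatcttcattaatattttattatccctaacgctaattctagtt

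Each mitochondrial gene was cut into all of its 50-base windows, which were looked up in every annotated nuclear transcript. The share of windows found there was 100% for mt-Co2, 99.86% for mt-Co3, 99.53% for mt-Atp6, 98.79% for mt-Nd4l and 97.99% for mt-Nd3, and these are called below the 5 genes with a whole nuclear copy. It was 62.23% for mt-Nd4 and 51.14% for mt-Co1, 8.19% for mt-Nd2, 7.61% for mt-Nd5 and 1.04% for mt-Rnr2. Some of these windows lie in pseudogenes on chromosome 2. Gm13340 holds 27.47% of those of mt-Co1, Gm13341 35.28% of those of mt-Co2 and Gm13339 8.19% of those of mt-Nd2. The chromosome 2 pseudogenes are not among the copies counted below. No window of mt-Rnr1, mt-Nd1, mt-Nd6, mt-Cytb, mt-Atp8 or mt-Tp was found. How the authors' counting treated reads with more than 1 place in the genome is not given in the sources used here. The values of the 5 genes with a whole nuclear copy are therefore uncertain.

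Mitochondrial transcripts held the most counted gene of these aortas. By mean CPM over the 10 libraries, mt-Co1, the catalytic subunit of complex IV, ranked 1 among all genes, mt-Cytb of complex III ranked 3, and the complex I genes mt-Nd1, mt-Nd4 and mt-Nd2 ranked 4, 6 and 8. Per kilobase of gene, mt-Co1 averaged 19589 CPM in KO and 26938 CPM in WT libraries, and mt-Cytb 13813 CPM in KO and 19070 CPM in WT. The rRNAs were far lower by the same measure, at 1019 CPM per kilobase in KO and 1931 in WT for mt-Rnr1 and 963 in KO and 1815 in WT for mt-Rnr2. The lowest levels belonged to the genes with a whole nuclear copy and to mt-Atp8. mt-Co2 had 408 CPM per kilobase in KO and 686 in WT, mt-Nd4l 17.3 in KO and 19.5 in WT, and mt-Atp8 0.99 in KO and 0.69 in WT.

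**Figure D1:**
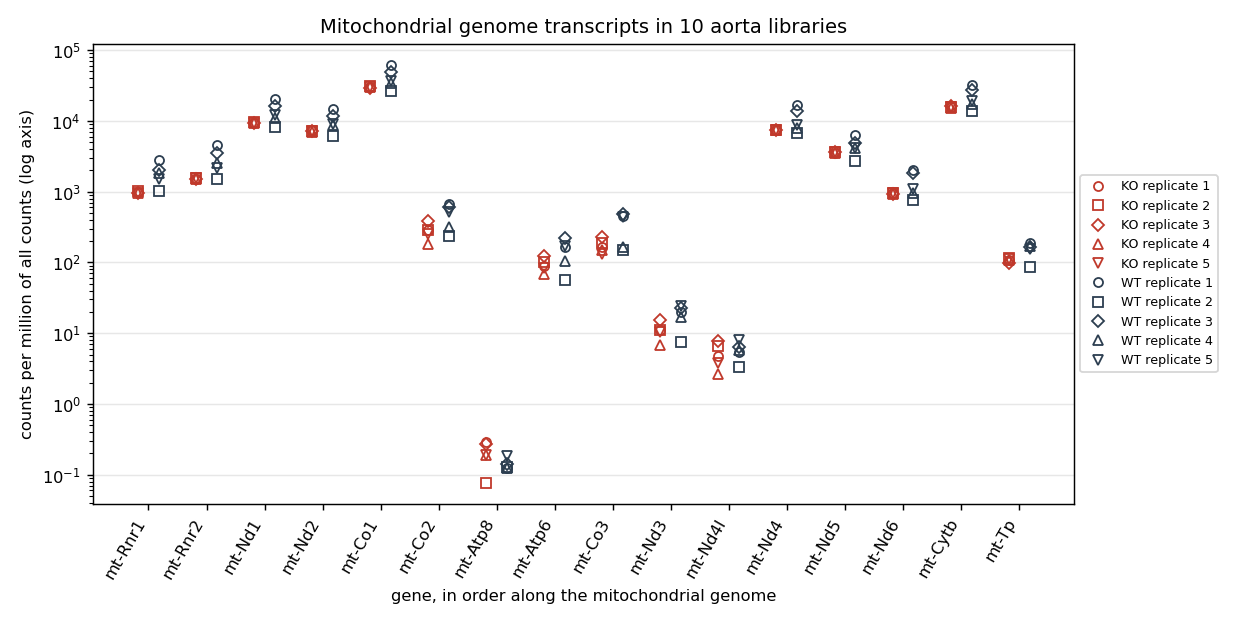
CPM (log axis) for the 16 genes in their order along the mitochondrial genome, with 1 symbol per library, KO in red on the left and WT in dark blue on the right of each gene. The KO symbols lie on top of each other except in mt-Co2, mt-Atp8, mt-Atp6, mt-Co3, mt-Nd3 and mt-Nd4l, and WT2 is the lowest WT library in each gene but mt-Atp8.

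Mitochondrial transcripts took up 7.81, 7.88, 7.75, 7.61 and 7.81% of all counts in KO1 to KO5, against 16.2, 6.75, 13.2, 8.92 and 9.59% in WT1 to WT5. The KO shares lay close together and inside the WT range, above WT2 and below the other 4 WT libraries. The mean of the KO shares minus that of the WT shares was -3.16 percentage points, and -0.646 without WT1 and WT3, which had the highest shares. Because the share is a sum over these genes it was not tested. Counted against other genes in place of all genes, there were 8.24 to 8.56 mitochondrial counts per 100 other counts in KO and 7.24 to 19.4 in WT libraries.

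The WT libraries kept their order from gene to gene. Over the 10 genes with no whole nuclear copy, mt-Atp8 left out, WT1 was the highest WT library in 10, WT2 the lowest in 10 and WT3 the next highest after WT1 in 9. The exception was mt-Tp, in which WT4 came after WT1. In these 10 genes the highest WT library exceeded the lowest 2.16-fold to 3.03-fold, while the highest KO library exceeded the lowest 1.02-fold to 1.19-fold. Their coefficient of variation (SD over mean of CPM) was 0.771 to 6.56% in KO and 25.4 to 41.6% in WT, where genes averaging 100 counts or more had medians of 4.09% in KO and 12.8% in WT.

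The rRNAs were the only members called in edgeR's test of 5 KO against 5 WT libraries. mt-Rnr1, the RNA of the small ribosomal subunit (ENSMUSG00000064337; chrM:70-1024, plus strand), had 976, 1012, 952, 953 and 973 CPM in KO, against 2818, 1025, 2057, 1830.3 and 1490.4 CPM in WT. Every KO library was below every WT library, with KO2 close to WT2. mt-Rnr2, the RNA of the large subunit (ENSMUSG00000064339; chrM:1094-2675, plus strand), had 1521, 1555, 1489, 1516 and 1535 CPM in KO, against 4576, 1509, 3496, 2584 and 2193 CPM in WT. Here WT2 lay among the KO libraries and the other 4 WT libraries above them.

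In edgeR's quasi-likelihood test of 5 KO against 5 WT libraries, mt-Rnr1 fell by 1.02 on the log2 scale (SE 0.24, adjusted p = 0.0183), a fold of 0.493 with a 95% interval of 0.342 to 0.71. mt-Rnr2 also fell by 1.02 (SE 0.27, adjusted p = 0.0300), a fold of 0.494 with an interval of 0.328 to 0.745. These 2 of 15 tested members were called, where the same threshold called 14.3% of 15710 genes in either direction and 7.43% as lower in KO. In either direction, the share of members called was close to that of all genes. An unadjusted p under 0.05 was found for 12 of 15 members and for 29.5% of all genes tested. With the KO counts as 1 sample, no member was called, and that fit called 0.0446% of all genes tested. The interval of the fold was then 0.196 to 1.24 for mt-Rnr1 and 0.176 to 1.39 for mt-Rnr2, both with an adjusted p of 0.999. Without WT1 and WT3, which had the highest mitochondrial shares, mt-Rnr1 fell by 0.59 (adjusted p = 0.0213) and mt-Rnr2 by 0.47 (adjusted p = 0.0330). These were the same 2 calls, in a comparison that called 27.2% of genes. As WT1 and WT3 were the highest libraries in both genes, leaving them out brings the differences nearer to 0 and narrows the WT spread. With any 1 KO library left out, mt-Rnr2 was no longer called (adjusted p = 0.0674 to 0.0690), nor was it without WT3 (adjusted p = 0.0559). With no filter on low counts, neither rRNA was called (adjusted p = 0.0839 for mt-Rnr1 and 0.127 for mt-Rnr2).

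Beside the level of each gene, the make-up of the mitochondrial counts can be read within a library, without reference to its size. The rRNAs made up 3.20, 3.26, 3.15, 3.24 and 3.21% of mitochondrial counts in KO, against 4.55, 3.75, 4.21, 4.95 and 3.84% in WT. All KO libraries were below all WT libraries, WT2 included, although the mitochondrial share of WT2 was below that of KO. As the KO libraries were nearly identical, they count here as little more than 1 value. The order of the rRNA share within WT was not that of the mitochondrial share, as WT4 had the most rRNA. For each count of mt-Rnr2 there were 6.07 to 6.31 of mt-Nd1, the next protein-coding gene along the genome, in KO libraries, and 4.28 to 5.53 in WT libraries. The ratio of mt-Rnr1 to mt-Rnr2 was 0.629 to 0.651 in KO, inside the WT range of 0.588 to 0.708.

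**Figure D2:**
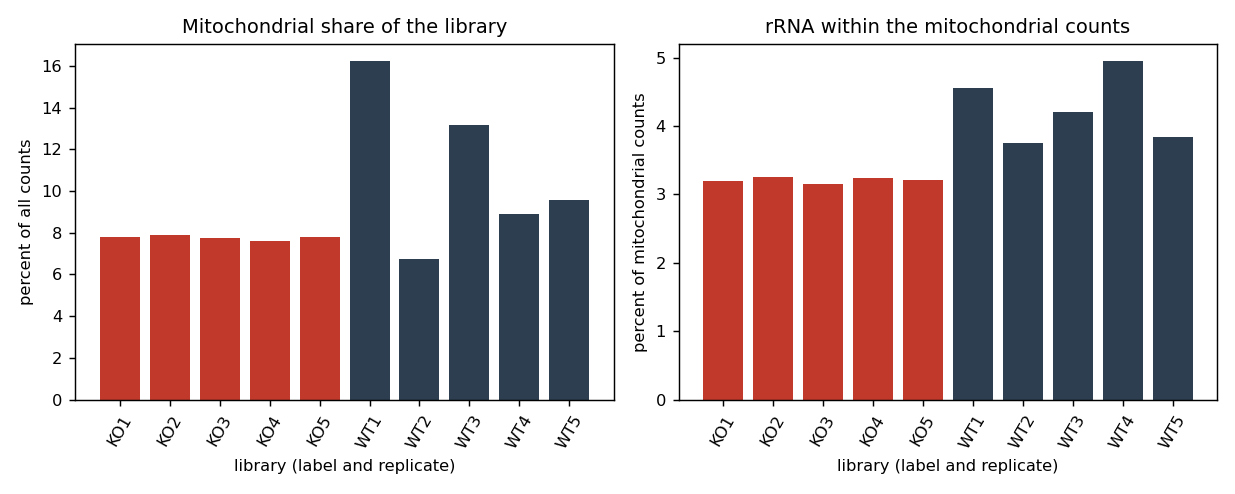
Left, mitochondrial counts as a percentage of all counts in each library; right, rRNA counts as a percentage of mitochondrial counts, with KO bars in red and WT bars in dark blue. The KO shares of 7.61 to 7.88% fall inside the WT range on the left, and the KO rRNA shares of 3.15 to 3.26% lie below the lowest WT library, 3.75%, on the right.

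The protein-coding genes with no whole nuclear copy lay in the same direction as the rRNAs, and none of the 7 passed the threshold in edgeR's test of 5 against 5 libraries, while DESeq2 called 3 of them (mt-Nd1, mt-Nd2 and mt-Nd4). Among the complex I subunits, which take electrons from NADH, mt-Nd1 had 9322, 9546, 9397, 9197 and 9354 CPM in KO, against 20099.9, 8125, 16070.5, 11062 and 12132 CPM in WT. mt-Nd2 had 7328, 7307, 7195, 7054 and 7243 CPM in KO, against 14529.9, 6148, 11683, 8794 and 9118 CPM in WT. In both, WT2 was below all KO libraries and the other WT libraries above them. The log2 difference was -0.63 for mt-Nd1 (SE 0.22, adjusted p = 0.0888) and -0.57 for mt-Nd2 (SE 0.21, adjusted p = 0.0922).

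mt-Nd4 had 7461, 7395, 7343, 7328 and 7331 CPM in KO, against 16669.7, 6696, 13761, 7829 and 8890.0 CPM in WT. Its coefficient of variation of 0.771% in KO was the smallest of the members. mt-Nd5 had 3555, 3617, 3606, 3489 and 3598 CPM in KO, against 6279, 2734, 4869, 4095 and 4113 CPM in WT. Of these 7 genes it had the smallest log2 difference, -0.40 (SE 0.19, adjusted p = 0.198), and mt-Nd4 the greatest, -0.65 (SE 0.25, adjusted p = 0.111). mt-Nd6, the mRNA encoded on the opposite strand from the other 12, had 953, 959.9, 941, 919 and 948 CPM in KO, against 2000.2, 768, 1843, 958 and 1103 CPM in WT. KO2 exceeded both WT2 and WT4 there, so the groups overlapped in more libraries than for mt-Nd1, mt-Nd2, mt-Nd4 and mt-Nd5. Its log2 difference was -0.60 (SE 0.26, adjusted p = 0.157), and it made up 1.25 to 1.26% of mitochondrial coding counts in KO and 1.13 to 1.46% in WT. The last bases of mt-Nd6 and mt-Nd5 overlap on opposite strands, and the counts may not have used strand, which the sources used here do not state, so reads there cannot be told apart.

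mt-Cytb, the cytochrome b subunit of complex III, had 15679, 15938, 16062, 15429 and 15903 CPM in KO, against 32007, 13817, 27000.5, 17321 and 18932 CPM in WT. mt-Co1 had 30614, 30799, 29636, 29708 and 30569.5 CPM in KO, against 61932, 26121, 49558, 33897 and 36585 CPM in WT. Both had a log2 difference of -0.56 (SE 0.22), with an adjusted p of 0.115. In both, WT2 alone was below the KO libraries. WT1 and WT3 were the highest WT libraries in each of the 7 genes, so leaving them out must bring the log2 differences nearer to 0. They were then -0.17 for mt-Nd1, -0.10 for mt-Co1, -0.09 for mt-Cytb and -0.01 for mt-Nd6, and none of the 7 genes was called.

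The tRNA gene mt-Tp, for tRNA of proline (ENSMUSG00000064372; chrM:15356-15422, minus strand), lies on the same strand as mt-Nd6. It had 108, 116, 97.4, 108 and 112 CPM in KO, against 187, 86.6, 165, 171 and 153 CPM in WT. Its log2 difference was -0.58 (SE 0.18, adjusted p = 0.0602), and WT2 alone was below the KO libraries. It made up 0.126 to 0.148% of mitochondrial counts in KO and 0.115 to 0.192% in WT.

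Taking the respiratory complexes together, the make-up of the coding counts differed little between libraries. Complex I genes gave 37.8 to 38.1% of mitochondrial coding counts in KO and 37.7 to 38.7% in WT, complex III 20.8 to 21.4% in KO and 20.5 to 21.4% in WT, and complex IV 40.4 to 41.2% in KO and 40.2 to 40.9% in WT. The ranges overlapped for each complex. Ratios between single mRNAs moved more in WT: mt-Nd4 over mt-Nd5 was 2.04 to 2.10 in KO, against 2.65, 2.45, 2.83, 1.91 and 2.16 in WT1 to WT5, and mt-Nd1 over mt-Nd5 was 2.60 to 2.64 in KO, against 3.20, 2.97, 3.30, 2.70 and 2.95 in WT. For mt-Nd1 over mt-Nd5 the groups did not overlap, and for both ratios WT3 and WT1 were highest. The nearly identical KO libraries count there as little more than 1 value. For mt-Nd1 over mt-Nd2 the groups overlapped, at 1.27 to 1.31 in KO and 1.26 to 1.38 in WT.

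**Figure D3:**
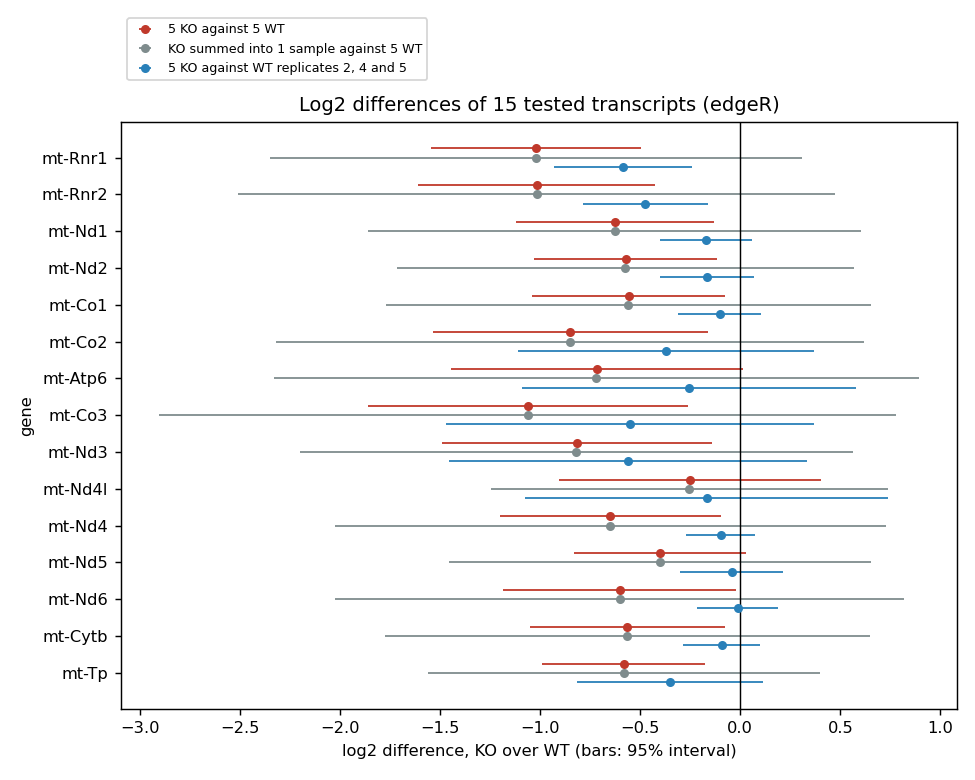
Log2 differences of KO over WT with 95% intervals for the 15 tested genes, from 5 KO against 5 WT libraries (red), KO summed into 1 sample against 5 WT (grey) and 5 KO against WT2, WT4 and WT5 (blue). All red points lie below 0, all grey intervals cross 0, and the blue intervals lie wholly below 0 for mt-Rnr1 and mt-Rnr2 only.

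Across the 15 tested genes, 15 log2 differences were below 0 and their median was -0.63, beside a median of -0.02 over all 15710 genes. The median of the 15 was -0.39 without WT1 and -0.17 without WT1 and WT3, the libraries with the highest mitochondrial shares. The libraries share 1 order for most of these genes, so the 15 are not separate observations. In CPM, 1 of 15 members, mt-Rnr1, had all 5 KO libraries below all 5 WT libraries, where 3.32% of the genes tested did, and no member had all KO above all WT, where 11.2% did. DESeq2 called 8 members, all lower in KO (mt-Rnr1, mt-Rnr2, mt-Nd1, mt-Nd2, mt-Co3, mt-Nd3, mt-Nd4 and mt-Tp), and 18.9% of all genes. Leaving out WT2 gave 13 members called, beside 2678 of 15940 genes tested, and leaving out WT3 gave 1, beside 2601 of 15892. With the KO counts as 1 sample, the 95% intervals of all 15 folds included 1, reaching from 0.276 to 1.52 for mt-Nd1 and from 0.293 to 1.57 for mt-Co1.

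The 5 genes with a whole nuclear copy were not called in edgeR's test of 5 against 5 libraries and were spread more widely within KO. mt-Co2, the subunit of complex IV that takes electrons from cytochrome c, had 289, 284, 385, 184 and 255 CPM in KO, against 669, 233, 606, 317 and 522 CPM in WT. mt-Co3, another core subunit of complex IV, had 167, 187, 229.7, 151 and 131 CPM in KO, against 454, 151, 480.0, 163 and 440.2 CPM in WT. mt-Atp6, which forms part of the proton channel of ATP synthase, had 89.4, 102, 124, 68.1 and 83.1 CPM in KO, against 163, 56.7, 223, 105 and 170.2 CPM in WT. In all 3, KO3 was the highest KO library and WT2 the lowest WT library, and the groups overlapped. mt-Nd3 of complex I had 11.2, 11.1, 15.5, 6.78 and 10.3 CPM in KO, against 19.9, 7.44, 22.9, 16.8 and 23.9 CPM in WT. mt-Nd4l of complex I had 4.75, 6.65, 7.76, 2.66 and 3.83 CPM in KO, against 5.41, 3.29, 6.31, 5.74 and 8.15 CPM in WT. In both, KO3 was again the highest KO library and KO4 the lowest. The log2 differences in edgeR were -0.85 for mt-Co2 (adjusted p = 0.0971), -1.06 for mt-Co3 (0.0762), -0.72 for mt-Atp6 (0.177), -0.81 for mt-Nd3 (0.102) and -0.25 for mt-Nd4l (0.624). DESeq2 called mt-Co3 (adjusted p = 0.0438) and mt-Nd3 (adjusted p = 0.0356), and edgeR called mt-Co3 when WT4 was left out (adjusted p = 0.0339).

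KO3 was the highest KO library in 5 of these 5 genes and KO4 the lowest in 4, KO5 being lowest in mt-Co3. In the other 10 genes KO3 was highest in 1. The coefficient of variation among KO libraries was 21.7 to 40.4% in the 5 genes, against 0.771 to 6.56% in the 10. Among 4789 genes averaging 1000 counts or more in KO, whose median coefficient was 2.51%, only 11 were above 20%. They were mt-Co2, mt-Atp6 and mt-Co3, 5 of the copies on chromosome 1 (Gm28437, Gm28661, Gm28439, Gm29216 and Gm10925), Uqcrc1, Hnrnpu and Gm10800. mt-Nd3 and mt-Nd4l were below that count and were not among those looked at.

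The copies on chromosome 1 had counts of their own. Those of partly copied genes were far below the gene: Gm29216, the copy of the end of mt-Co1, had 36.2 to 96.5 CPM in KO and 36.4 to 151 CPM in WT, and Gm28439, the copy of the first part of mt-Nd4, had 27.3 to 78.7 CPM in KO and 31.5 to 95.4 CPM in WT. Gm28661, the copy of mt-Co2, had 239, 190.1, 372, 144 and 207 CPM in KO, against 473, 138, 456, 227 and 427 CPM in WT. Gm28437, the copy of mt-Co3, had 128, 114, 259.9, 170.1 and 112 CPM in KO, against 980.4, 93.1, 487, 169.9 and 242 CPM in WT. KO3 was the highest KO library in both, as in 6 of the 7 copies, and KO4 was the lowest KO library in 5 of 7. None of the 7 copies was called between the groups, and their log2 differences in edgeR ran from -0.09 to -1.46. The ratio of mt-Co2 to Gm28661 was 1.03 to 1.49 in KO and 1.22 to 1.69 in WT, that of mt-Atp6 to Gm10925 0.380 to 0.520 in KO and 0.357 to 0.572 in WT, and that of mt-Co3 to Gm28437 0.884 to 1.64 in KO and 0.463 to 1.82 in WT.

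**Figure D4:**
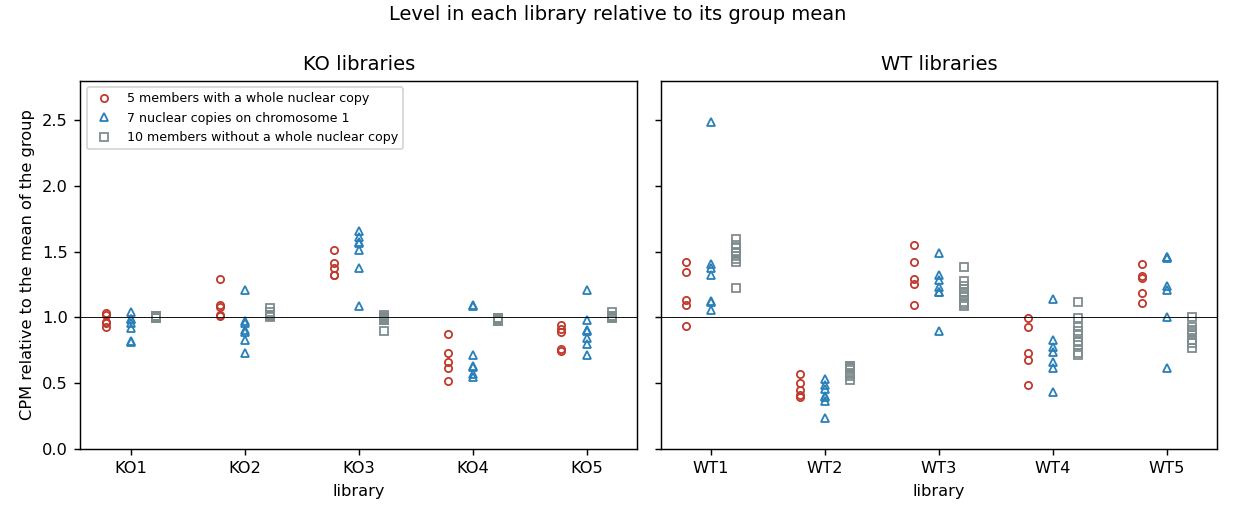
CPM in each library divided by the mean of its own group, for the 5 genes with a whole nuclear copy (red circles), the 7 copies on chromosome 1 (blue triangles) and the 10 genes with no whole copy (grey squares); mt-Atp8 is left out. In KO3 the red circles all lie above the line at 1 and the grey squares near it, while in WT2 all 3 sets lie low.

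Adding the counts of the copy to those of mt-Co2 left it far below mt-Co1, the protein-coding gene before it. mt-Co2 and Gm28661 together had 328 to 757 CPM in KO and 372 to 1142 CPM in WT, against at least 29636 CPM in KO and 26121 CPM in WT for mt-Co1. The mitochondrial share of all counts with the 7 copies added was 7.67 to 7.95% in KO and 6.79 to 16.5% in WT. Without the genes that have a whole or partial near-identical copy it was 3.87 to 4.01% in KO and 3.42 to 8.25% in WT. Reads with more than 1 place, if they were discarded before deposit, are not in either figure.

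**Figure D5:**
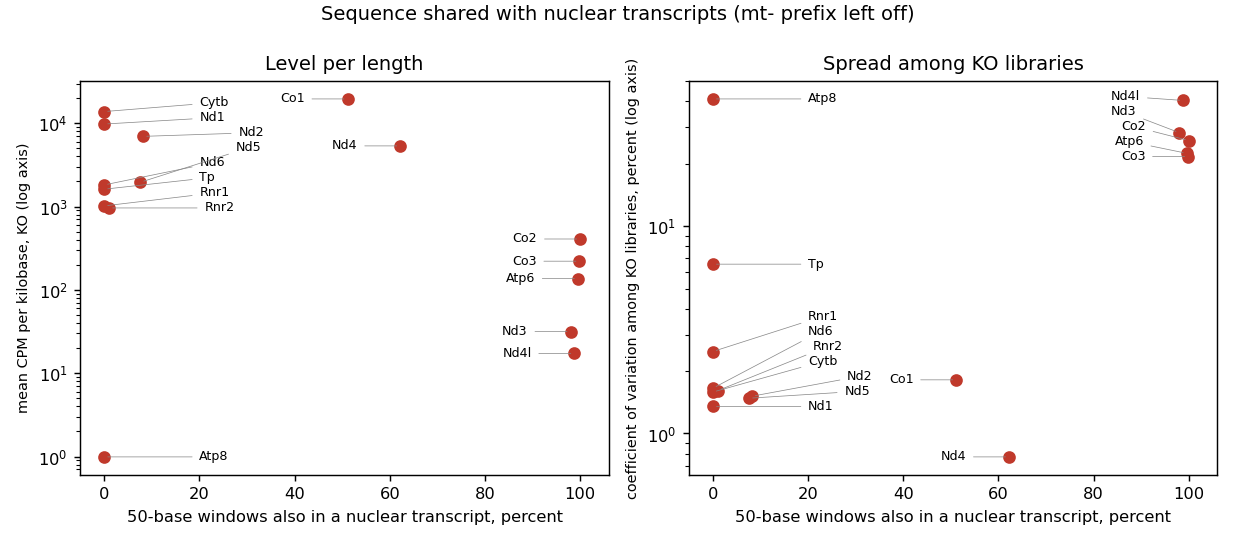
Share of each gene's 50-base windows that also occur in an annotated nuclear transcript (x axis, percent) against mean CPM per kilobase in KO (left, log axis) and against the coefficient of variation among KO libraries (right, log axis), with 1 point per gene. The 5 genes near 100% have 17.3 to 408 CPM per kilobase and coefficients of 21.7 to 40.4%, and mt-Atp8 stands apart with few counts and no shared window.

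mt-Nd4 and mt-Co1 are copied only in part. Both share more than 50% of their windows with nuclear transcripts. Their levels per kilobase in KO were 5350 and 19589 CPM and their coefficients of variation 0.771 and 1.81%. The rest of their windows is not shared, and a level for the whole gene cannot separate the shared part from the unshared part. The points share their libraries and differ in length, and no correlation was computed.

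mt-Atp8, the other mitochondrial subunit of ATP synthase, had almost no counts. It had 7, 2, 7, 5 and 5 counts in KO, against 3, 3, 3, 3 and 4 in WT, and was too low to be tested. Its 204 bases include 43 that overlap the start of mt-Atp6, and the other 161 are its own. The overlap holds the start codon of mt-Atp6 and the stop codon of mt-Atp8, shown in capitals, in different reading frames of the same strand.
overlap of mt-Atp8 and mt-Atp6 (chrM:7927-7969, plus strand): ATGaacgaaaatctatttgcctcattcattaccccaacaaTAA
On the mitochondrial genome 230 bases separate mt-Co2 and mt-Atp6, the interval in which most of mt-Atp8 lies, and on chromosome 1 the copies Gm28661 and Gm10925 are separated by 233 bases. The sequence of that interval on chromosome 1 was not read, because only annotated transcripts were searched.

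Nuclear genes that act on mitochondrial DNA and RNA were looked at beside the mitochondrial transcripts. Over all genes, the edgeR test of 5 against 5 called 14.3% in either direction and 7.43% as lower in KO. Of 33 tested genes of mitochondrial DNA transcription, replication and RNA processing, 5 fell and 0 rose, with a list median of -0.07. They included Elac2, which cuts tRNA ends (log2 -0.24, adjusted p = 0.00868), Mterf3, which acts on mitochondrial transcription and ribosome assembly (-0.24, 0.0109), Mtpap, the mitochondrial poly(A) polymerase (-0.26, 0.0109), and Rexo2, which degrades short RNA (-0.24, 0.0153). Among 77 mitochondrial ribosomal proteins, partners of the rRNAs, 12 fell and 0 rose, with a median of -0.09. For both lists, the share called was near the either-direction share of all genes and above the share called lower. Mrpl52 (-0.37, adjusted p = 0.00263) and Mrps7 (-0.25) were among those that fell. Among 83 nuclear subunits of the respiratory complexes, 31 fell and 0 rose, with a median of -0.16, for example Atp5d of ATP synthase (-0.37, adjusted p = 0.000209) and Cox4i1 of complex IV (-0.30). Without WT1 and WT3 the median was -0.20 for the respiratory subunits, beside -0.17 for the mitochondrial transcripts. Those libraries had the highest mitochondrial shares, which draws the second median toward 0, so the medians are not on an equal footing. All 3 lists had 0 calls with the KO counts as 1 sample.

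Regulators of mitochondrial biogenesis and proteins of import and organelle mass had 1 of 8 and 4 of 19 genes called, beside 14.3% of all genes, and 0 with the KO counts as 1 sample. Of the 8 regulators, Yy1 alone was called (-0.16, adjusted p = 0.0463), and Ppargc1b, a transcriptional coactivator, had a log2 difference of -0.88 with an adjusted p of 0.119. Of the 19 import and mass genes, Tomm40 (-0.43, adjusted p = 0.0109), Timm50 (-0.24) and Timm44 (-0.21), all of the import machinery, fell, and Mfn2, which fuses outer membranes, rose (0.21, adjusted p = 0.0497). Their summed level was 2732 to 2776 CPM in KO, against 2245, 2821, 2386, 2887 and 2800.3 CPM in WT. The sum was thus lowest in WT1 and WT3, where the mitochondrial transcripts were highest. Its most abundant members, Slc25a4 and Cs, were also lowest there. Timm50 went the other way, with its highest levels in WT1 (36.6 CPM) and WT3 (37.5 CPM), and Tomm40 was highest in WT3 (25.3 CPM). As CPM is a share of all counts, a larger mitochondrial share in a library also lowers the CPM of its other genes.

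Other transcripts set WT1 and WT3 apart as well. For the marker counts below, edgeR's test of 5 against 5 called 14.3% of all genes in either direction and 7.43% as lower in KO. Satellite-like predicted genes, of which 5 of 5 tested were lower in KO, summed to 41.2 to 77.0 CPM in KO, against 467, 73.1, 532, 168 and 79.4 CPM in WT. Endothelial markers summed to 274 to 283 CPM in KO, against 189, 518, 138, 616 and 508 CPM in WT, and 0 of 6 were called. Brown adipocyte markers, from cells rich in mitochondria, summed to 214 to 229 CPM in KO, against 169, 215, 52.0, 862 and 629 CPM in WT, and 0 of 7 were called. White adipocyte markers summed to 1429 to 1470.5 CPM in KO, against 1138 (WT1), 1709 (WT2), 1135 (WT3), 2877 (WT4) and 2327 (WT5) CPM in WT. In each of these 3 cell type lists, WT1 and WT3 were the lowest of the 10 libraries, and in the satellite-like list the highest.

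Smooth muscle markers summed to 37396 to 38080.4 CPM in KO, against 36335, 32591, 37999, 26654 and 29486 CPM in WT, with 1 of 7, Tagln, called lower. Tagln was a very small part of that sum, with 21.3 to 24.1 CPM in KO and 22.3 to 27.7 CPM in WT, and its groups overlapped. Fibroblast markers summed to 2642 to 2693 CPM in KO and 1798 to 2350.2 CPM in WT, with 3 of 6 higher in KO (Lum, Dcn and Dpt). Heart and striated muscle markers, from other cells rich in mitochondria, summed to 83.8 to 89.1 CPM in KO and 58.4 to 174 CPM in WT, with 0 of 7 called. Red cell markers, from blood cells that lose their mitochondria, summed to 19.6 to 21.9 CPM in KO and 66.0 to 315 CPM in WT, with 5 of 5 lower. No marker in any of these lists was at 0 in all libraries. With the KO counts as 1 sample, 0 genes were called in each of these marker lists and in the satellite-like list. The part of any of these cell types in the levels of the mitochondrial transcripts was not tested, and in bulk RNA fewer cells of a type cannot be told apart from less RNA per cell.

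Because the rRNAs made up less of the mitochondrial counts in KO, a list of RNAs taken to lack a poly(A) tail was also looked up. Rn7sk, a nuclear RNA that holds back transcription elongation, had 8.19, 8.39, 10.1, 6.11 and 7.78 CPM in KO, against 100.8, 14.3, 32.7, 38.5 and 10.2 CPM in WT, and fell by 2.40 on the log2 scale (adjusted p = 0.0227). Rpph1, the RNA of ribonuclease P, had 2.50, 2.05, 3.34, 1.84 and 2.05 CPM in KO, against 41.5, 4.97, 7.11, 11.3 and 4.79 CPM in WT, and fell by 2.69 (adjusted p = 0.0230). For both, all KO libraries were below all WT libraries, as for the rRNA share, and WT1 was the highest library. Of all genes tested, 3.32% had all KO below all WT libraries in CPM, and the KO libraries were nearly identical. The histone gene Hist1h1c rose (0.41, adjusted p = 0.000799), with 53.5 to 56.7 CPM in KO and 37.3 to 40.9 CPM in WT. All of its KO libraries were above all WT libraries, as in 11.2% of genes tested. Hist1h2bc was not called. The list summed to 142 to 147 CPM in KO, against 254, 135, 159, 148 and 125 CPM in WT, so the groups overlapped. Whether the transcripts of these histone genes lack a tail in aorta was not tested. The list was not uniform in direction, and with the KO counts as 1 sample 0 of 4 were called. The part of the library preparation in the rRNA share was not tested.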

How the data were processed

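Each of the 10 libraries has a file of deposited counts, whole reads for 35667 genes named by Ensembl identifiers. Per the labels' protocols, RNA from frozen aorta was extracted with Trizol and made into libraries from total RNA with an Illumina TruSeq RNA kit. Per the submitters' processing notes, the tool was Bowtie 0.12.2 and the genome builds were mm8 and mm9, without a role for either. The identifiers are of the later GRCm38 period. The counter, its annotation, its strand setting and its handling of reads with several places are all not given in these sources. Coordinates, gene lengths and sequences come from GENCODE M21 (GRCm38), which holds 35519 of the identifiers.

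CPM are counts divided by the library's total and multiplied by 1000000, with no further scaling. Tests were run in R 4.3.3 with edgeR 4.0.16, by its robust quasi-likelihood fit, on TMM factors, after filterByExpr (minimum count 10, minimum total 15). They were fitted over all 15710 genes that passed, with 5 KO and 5 WT libraries and no covariate. Benjamini-Hochberg adjustment ran over those genes, the threshold was 0.05, and an adjusted p comes from edgeR unless another tool is named. SE is the size of the log2 difference over the root of the F value. The labels do not say whether libraries are separate animals, so p-values measure the spread between these libraries only.

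Alternatives were other scalings, no filter, DESeq2 1.42.0, limma-voom (limma 3.58.1), a replicate block, KO summed, and leaving out libraries. A run on simulated data was also made, and its outcome is not given here. It was not shown to cover KO libraries as nearly identical as these, so it is no evidence for the calls. The members, the gene lists and the alternatives were chosen with earlier results of these data known. Genes were named by rule: all members, the 7 copies, up to 4 called members of smallest p in each list, and list sums for markers. Ppargc1b, Uqcrc1, Hnrnpu, Gm10800 and Hist1h2bc were named after their values were seen.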

Additional observations from a re-analysis of the deposited data

Results flagged for a closer look

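Of 68 groups of 5 libraries that were checked for a single outlying library, 1 stood out, where chance flags about 1 in 20. It was mt-Atp8 in WT5, with 0.186 CPM beside 0.123 to 0.141 CPM in the other 4 WT libraries. The gap made up 0.711 of the range of the group, with a critical value of 0.71. It rests on 4 counts in WT5 and 3 in each of the others.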

How the results depend on the processing

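All 285 values of the 15 tested members under the alternatives kept their negative sign; mt-Atp8, fitted only with no filter, was at 0.48. The number of mitochondrial transcripts called, 2 in the 5 against 5 test, was 0 with no filter, 8 with DESeq2, 0 with the KO counts summed into 1 sample and 1 to 13 when 1 library was left out. It stayed at 2 with other scalings, with limma-voom and without WT1 and WT3. With the replicate number as a block it was 0, and 1319 genes in all were called in place of 2242. Correlations between libraries of the same number ran from -0.0398 to 0.0426. As the KO libraries differ by little beyond counting error, these correlations cannot show whether the numbers pair the samples. Over all genes tested, calls were 1970 of 35667 with no filter, 2975 of 15710 with DESeq2, 2678 of 15940 without WT2 and 2601 of 15892 without WT3. The rRNA share, KO minus WT, was -1.05 percentage points, and -1.99 when genes with a near-identical nuclear copy were left out, which makes the denominator smaller. With KO summed, 0 members of any nuclear list were called. Without WT1 and WT3, 27.2% of all genes tested were called. Of 84 nuclear respiratory subunits, 49 were then called, 47 lower and 2 higher in KO. Called lower were 4 of 7 brown adipocyte, 3 of 6 endothelial, 3 of 5 satellite-like and 2 of 6 white adipocyte genes. Called higher were 3 of 7 smooth muscle genes and 1 of 7 striated muscle genes. The cause was not tested. Depth limits mt-Atp8, with 2 to 7 counts in a library, most.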
